A study of Mus musculus with 2 samples.

Results

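The mitochondrial ribosomal protein genes were taken as every protein-coding row of the gene tables whose Ensembl identifier maps to a mouse symbol beginning with Mrpl or Mrps and a digit. This gave 77 genes out of 21474 protein-coding genes, of which 48 carry a large subunit symbol (Mrpl) and 29 a small subunit symbol (Mrps). They lie on 17 chromosomes, with 11 on chromosome 11 and 8 on chromosome 17. RNA came from pooled livers of male and female B6NCrl mouse embryos at embryonic day 11.5, with no treatment or altered allele named. There were 2 SmartSeq libraries, 1 for each biological replicate, each made from 1 cell-equivalent of RNA. The labels call the measurement total RNA-seq and name a SmartSeq protocol, a method that primes cDNA on poly(A) tails and amplifies it by PCR. How far RNA without such a tail entered these libraries was not tested, which bears on the mitochondrial rRNA levels given below. The replicate 1 label names a pool of 109 embryos.

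The mitochondrial ribosome translates the few mRNAs that mitochondrial DNA encodes, all of them for subunits of the respiratory chain and ATP synthase. Its rRNAs are made inside the organelle, while its proteins are encoded in the nucleus, made on cytosolic ribosomes and imported. Part of these proteins have counterparts in bacterial ribosomes, and the others are found only in mitochondria. At this stage the liver holds hepatoblasts, from which hepatocytes and bile duct cells form, together with many red cell precursors, which need mitochondria to make heme.

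Summed over all rows, estimated counts came to 33289699 (replicate 1) and 32607453 (replicate 2), and spike-in RNAs took 5.83% and 7.68% of all TPM (a relative abundance corrected for transcript length). The tissue label was checked against marker genes. Of 12 hepatoblast markers 11 reached a TPM of 1 in both libraries. Hnf4a did not, with a TPM of 34.8 in replicate 1 and 0 reads in replicate 2. All 14 erythroid markers reached a TPM of 1 in both libraries. Of 14 heart muscle markers 3 did so in both libraries and 8 in replicate 2 only, with a summed TPM of 106.9 in replicate 1 and 368.9 in replicate 2. Myh7, Myl3 and Nppa had no read in either library. The part of these heart markers in the differences between the libraries described below was not tested. In pooled tissue, fewer cells of a type and less RNA per cell cannot be told apart.

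Nearly all members were detected. Both libraries showed a TPM of 1 or more for 73 of the 77 members, against 27.3% of all protein-coding genes, in replicate 1 only by 2, in replicate 2 only by 2, and in neither by 0. By subunit, 47 of 48 large subunit genes and 26 of 29 small subunit genes were detected in both. The members are abundant as a group. Their median rank by mean TPM among protein-coding genes was 1050, and 46 had a mean of 100 TPM or more. Of all 21474 protein-coding genes, 713 had a mean TPM of 100 to 200 and 680 of 200 or more. Genes of like abundance were also mostly detected. At a mean TPM of 10 to 50 it was 13 of 14 members against 68.5% of genes, at 50 to 100 it was 13 of 14 against 97.2%, at 100 to 200 it was 26 of 26 against 99.7%, and at 200 or more it was 20 of 20 against 100%. The other 3 members, Mrpl39, Mrps30 and Mrps9, had a mean TPM under 10. At least 1000 estimated reads in both libraries were found for 55 members, and no such count over all genes is given here. These are reads after PCR from 1 cell-equivalent of RNA, so they do not count the molecules that were sampled.

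The 4 members detected in 1 library each had between 150 and 5749 estimated reads there, and at most 25 in the other. Mrpl3 (ENSMUSG00000032563.11, chromosome 9, 105053239 to 105079888, plus strand) encodes a large subunit protein with a bacterial counterpart that binds rRNA. It had 5749 estimated reads and a TPM of 171 in replicate 1, and 22 reads and a TPM of 0.58 in replicate 2. Mrps31 (chromosome 8, 22411361 to 22429665, plus strand), a small subunit protein found only in mitochondria, had 2829 reads and a TPM of 66.6 in replicate 1. In replicate 2 it had 0 reads. Set against a floor of 3 reads in that library, its CPM (reads scaled to library size) was at least 923.7-fold higher in replicate 1. Mrps30 (chromosome 13, 118378381 to 118387252, minus strand) went the other way, with 25 reads and a TPM of 0.57 in replicate 1 and 594 reads and a TPM of 13.6 in replicate 2. Despite its symbol the Mrps30 protein sits in the large subunit. Mrps9 (chromosome 1, 42851233 to 42905683, plus strand), the counterpart of a bacterial small subunit protein, had 0 reads in replicate 1 and 150 reads, a TPM of 3.87, in replicate 2. Against a floor of 3 reads this was at least 51.0-fold higher in replicate 2. These floors cover read counting error only, since PCR copies are not independent molecules.

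**Figure D1:**
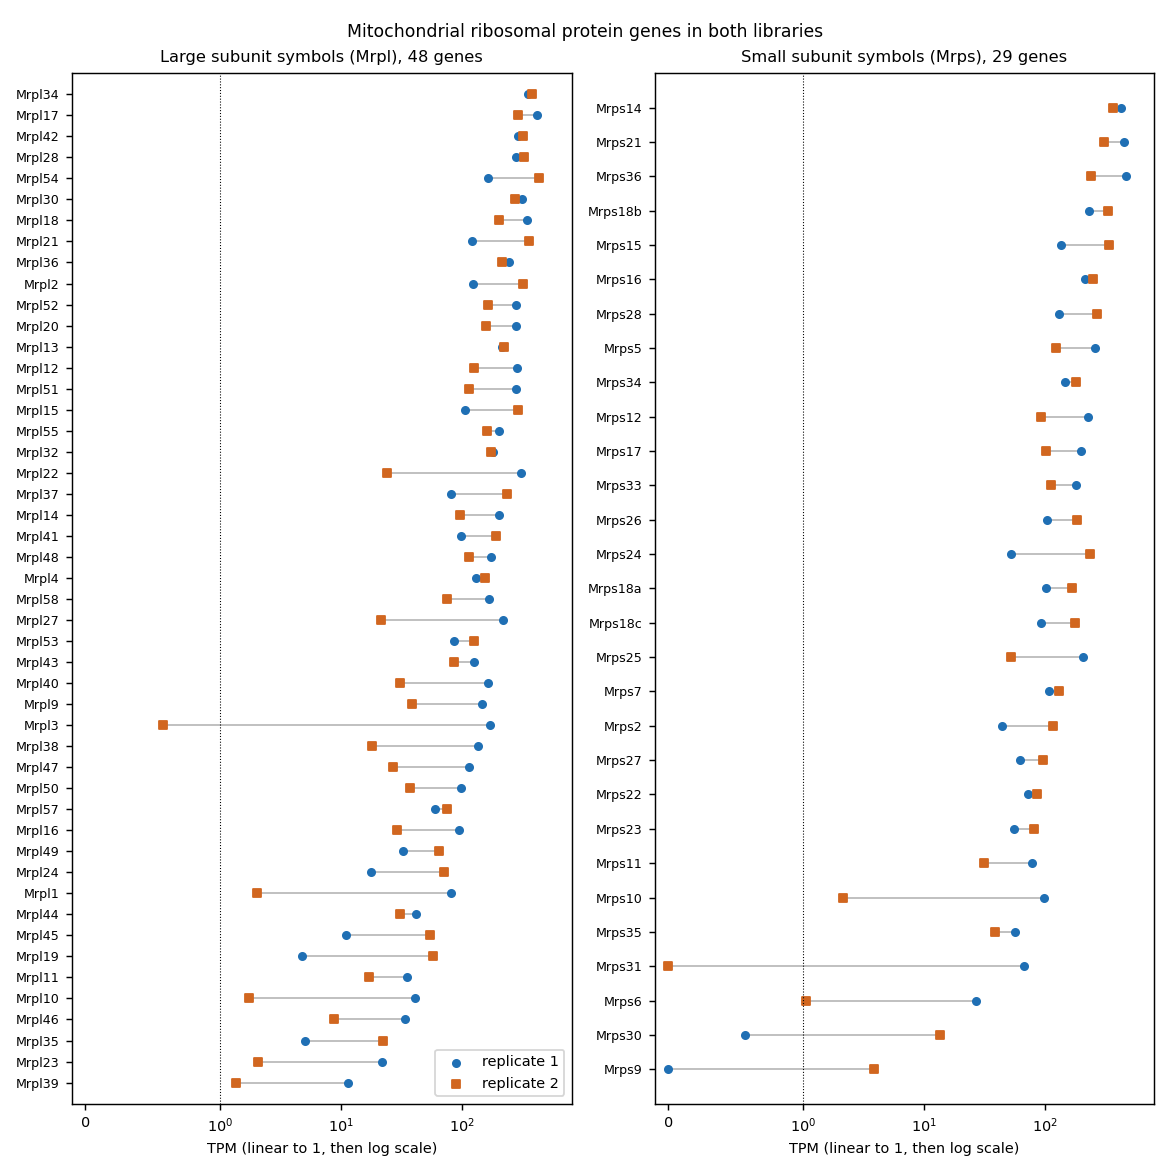
Each row is a member gene, with its TPM in replicate 1 (blue circles) and replicate 2 (orange squares) on an axis that is linear up to 1 and logarithmic above; genes are ordered by mean TPM within the large (left, 48 genes) and small subunit (right, 29 genes). Most pairs lie near or above 100 TPM and close together at the top, while Mrpl3, Mrps31, Mrps30 and Mrps9 each cross the dotted line at a TPM of 1.

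Among large subunit genes the 8 highest by mean TPM were Mrpl34, Mrpl17, Mrpl42, Mrpl28, Mrpl54, Mrpl30, Mrpl18 and Mrpl21. Mrpl34 (ENSMUSG00000034880.6, chromosome 8, 71464959 to 71465747, plus strand), the counterpart of a short bacterial protein, stood at a TPM of 349 in replicate 1 and 379 in replicate 2. Mrpl17 (chromosome 7, 105803206 to 105811099, minus strand) stood at 413 and 288. Mrpl42, a protein found only in mitochondrial ribosomes, stood at 291 and 317, and Mrpl28, with a bacterial counterpart, at 279 and 325. Mrpl34 was above Mrpl42 and Mrpl28 in both libraries, while Mrpl17 was the highest of the 4 in replicate 1 and the lowest in replicate 2, and the values of Mrpl42 and Mrpl28 overlapped. Mrpl30 was at 310.4 and 272, and Mrpl18, from a family that binds 5S rRNA in bacteria, at 341 and 200.0. Mrpl54, which is specific to mitochondria, was at 164 and 427 TPM, and Mrpl21 at 120.4 and 357. Both were higher in replicate 2 by over 2-fold.

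Among small subunit genes the 8 highest were Mrps14, Mrps21, Mrps36, Mrps18b, Mrps15, Mrps16, Mrps28 and Mrps5. Mrps14 (ENSMUSG00000058267.9, chromosome 1, 160195215 to 160202170, plus strand), a protein of the subunit's head with a bacterial counterpart, stood at a TPM of 422 in replicate 1 and 367 in replicate 2. It was the highest member by mean TPM. Mrps21 stood at 452 and 309.8, and Mrps36 at 468 and 242. Mrps36 keeps a ribosomal symbol but is known as a subunit of the alpha-ketoglutarate dehydrogenase complex. Mrps16 was at 213 and 247 TPM and Mrps5, a protein near the mRNA entry, at 259 and 124. Mrps15 was at 135 and 340.2 and Mrps28 at 129.5 and 267, both higher in replicate 2.

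The 3 paralogs of bacterial protein S18 were all expressed. In bacteria a single gene encodes this protein. Mrps18a, whose product is placed in the large subunit, stood at a TPM of 103 in replicate 1 and 167 in replicate 2. Mrps18b stood at 233 and 331, and Mrps18c, the paralog at the bacterial position, at 92.5 and 177. Mrps18b was the highest of the 3 in both libraries, while Mrps18a and Mrps18c changed places between them. All 3 were higher in replicate 2, and none by 2-fold.

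The large and small subunits did not differ in level beyond the spread between the libraries. The median TPM of large subunit genes was 133 in replicate 1 and 90.9 in replicate 2, and that of small subunit genes was 103 and 116. The means of these medians were 112 ± 29.97 for the large and 109 ± 8.97 for the small subunit (SD, n = 2). The ratio of the medians, large over small, was 1.29 in replicate 1 and 0.785 in replicate 2, so the order turned around between libraries. When TPM was first averaged per gene the medians were 131 and 135 and their ratio 0.974. Mrps30 and Mrps18a were also placed in the large subunit and Mrps36 left out, as the structure of the ribosome has it. The mean of the 2 per-library ratios was then 1.00, against 1.04 by symbol. By structure the large subunit medians were 128 in replicate 1 and 90.9 in replicate 2, and the small subunit medians 106 and 114. The order thus still turned around between libraries. Medians of the mean TPM per gene were 128 for the large and 139 for the small subunit by structure. Together the members took 1.16% of all TPM in replicate 1 and 1.03% in replicate 2, a mean of 1.10% ± 0.0924 (SD, n = 2). The large subunit genes held 0.735% and 0.620%, and the small subunit genes 0.429% and 0.413%. Member transcripts are short, with a median effective length of 928 bases against 1760 over protein-coding genes, and their share of the reads themselves was 0.847% and 0.765%.

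Members with bacterial counterparts and members found only in mitochondria were compared within each subunit. In the large subunit the 28 genes with a bacterial counterpart had a median TPM of 158 in replicate 1 and 110.5 in replicate 2. The 20 genes specific to mitochondria had 112 and 80.4. In the small subunit the 16 genes with a bacterial counterpart had 119 and 128, and the 9 specific to mitochondria had 72.8 and 86.7. Mrps18a, Mrps18b, Mrps30 and Mrps36 were left out of these classes. The genes with a bacterial counterpart thus had the higher median in both libraries and in both subunits. Members are not replicates, so no test was made of this difference. The stalk that recruits translation factors is formed by Mrpl10 and Mrpl12, and the latter was 281 and 125 TPM while Mrpl10 was 41.1 and 1.74. Both were higher in replicate 1. The 5 genes taken here from around the exit of the peptide tunnel differed widely in level, both from each other and between the libraries. Mrpl22 stood at 308 and 23.8 TPM, Mrpl24 at 17.8 and 70.7, Mrpl44 at 41.9 and 30.6, and Mrpl45, which faces the inner membrane, at 10.9 and 54.5. Mrpl23, at 21.6 and 2.07, is described below with a near-identical pseudogene.

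**Figure D2:**
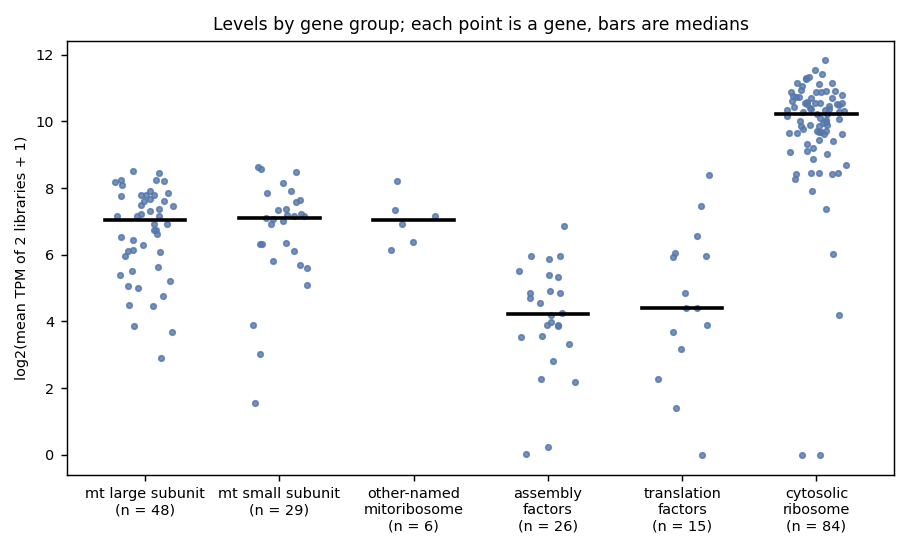
Each point is a gene, its height is log2 of its mean TPM over the 2 libraries plus 1, and black bars are medians of each group. The large and small subunit bars are nearly level, the assembly and translation factors lie lower, and the 84 cytosolic ribosomal protein genes lie higher.

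Assembly factors, translation factors and transcription genes had lower medians than the members in both libraries, while mitoribosome proteins under other names were above the members' median in replicate 1 and below it in replicate 2. All 6 mitoribosome proteins listed under names of another form (Mrpl58, which is also a member, among them) passed detection in each library, and their median TPM was 151 in replicate 1 and 75.3 in replicate 2. The highest were Chchd1 at 311 and 275, Aurkaip1 at 136 and 184, and Dap3, a GTP-binding small subunit protein, at 221 and 61.9. Of all 21474 protein-coding genes 5870 were detected in both libraries, 2078 in replicate 1 only, 1519 in replicate 2 only and 12007 in neither. At a mean TPM of 10 to 50 it was 68.5% in both. The median of mean TPM was 17.55 for assembly factors and 20.4 for translation factors. Of 26 assembly factors, which modify the rRNAs or help the subunits form, 13 were detected in both libraries. Another 10 were detected in replicate 1 only, 1 in replicate 2 only and 2, Mtg2 and Ngrn, in neither. The 26 assembly factors had a median TPM of 27.4 and 7.36. Their highest were Rbfa at 126 and 106, Malsu1 at 83.4 and 38.7, and Fastkd2 at 48.2 and 75.1. Of 15 translation factors and their partners 9 were detected in both, 2 in replicate 1 only, 3 in replicate 2 only and 1, Taco1, in neither. Their median TPM was 15.9 and 40.0. Slirp, a partner of mitochondrial mRNAs, reached 337 and 332, the elongation factor Tufm 209.8 and 142, and its exchange factor Tsfm 123 and 62.8. Of 6 genes of mitochondrial transcription 3 were detected in both, with Tfam, which packs and transcribes mitochondrial DNA, highest at 132 and 157. The mitochondrial rRNAs that the members bind, mt-Rnr1 of the small and mt-Rnr2 of the large subunit, stood at 573 and 718 TPM, and at 2163 and 3045 TPM. The 84 cytosolic ribosomal protein genes had a median TPM of 1125 and 1114 and took 10.04% and 10.5% of all TPM.

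The libraries were next compared gene by gene, by the log2 ratio of TPM plus 1, replicate 2 over replicate 1, centred on the median of protein-coding genes. A 2-fold rule of size was used with no test, since each replicate has a single library. Of the 74 members whose mean TPM was 10 or more, 25 were at least 2-fold higher in replicate 1 (33.8%, against 26.0% of protein-coding genes), 13 at least 2-fold higher in replicate 2 (17.6%, against 25.4%), and 36 lay within 2-fold. In both directions together this was 51.4% of members and 51.5% of genes, so as many members passed the rule as genes at large. Centring on the spike-ins, which moved the median of the members from -0.38 to -0.79, a shift of -0.41, gave 40 members past 2-fold, 32 of them higher in replicate 1 and 8 in replicate 2. Out of 47 large subunit genes, 18 passed towards replicate 1 and 9 towards replicate 2. Out of 27 small subunit genes, 7 and 4 did. The median log2 ratio was -0.53 for the large and 0.21 for the small subunit.

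The largest differences included genes of both subunits. Besides Mrpl3 and Mrps31, the genes most in excess in replicate 1 were Mrps10 (a small subunit protein with a bacterial counterpart) at 98.8 and 2.17 TPM, Mrpl1 at 80.8 and 2.03, and Mrpl10 at 41.1 and 1.74. Estimated reads were 2991 and 61 for Mrps10, 4833 and 199 for Mrpl1, and 1954 and 33 for Mrpl10. In replicate 2, leaving aside Mrps30 and Mrps9 with their mean TPM under 10, the 5 genes most in excess were Mrpl19, Mrpl45, Mrps24, Mrpl24 and Mrpl35. Mrpl19 stood at 4.74 and 57.0 TPM, which is 686 and 4049 reads. Mrpl45 was given above, Mrps24 stood at 52.7 and 233.5 TPM, Mrpl24 at 17.8 and 70.7, and Mrpl35 at 5.06 and 22.1. Mrps24 and these 4 large subunit genes each had at least 541 reads in the lower library.

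Because the spread between libraries falls with abundance, members were also set beside genes of like level. Among members with a mean TPM of 10 to 50 the median absolute log2 ratio was 2.07, against 1.71 in all protein-coding genes of that abundance. At 50 to 100 it was 1.54 against 0.86, at 100 to 200 it was 0.94 against 0.63, and at 200 or more it was 0.54 against 0.33. Genes of the members' middle range of effective length (660.5 to 1305.7 bases) had 4.42, 0.94, 0.67 and 0.38 in the same 4 classes. The members, which were not restricted by length, were therefore above the length-restricted value in the 3 upper classes and below it in the lowest. There were 14, 14, 26 and 20 members in the classes from low to high. These are descriptions without a test. Of 82 cytosolic ribosomal protein genes 3 passed 2-fold, with a median absolute log2 ratio of 0.23 at their higher levels.

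Across the 77 members, log2(TPM + 1) in the libraries had a Pearson correlation of 0.52 and a Spearman correlation of 0.57. The values were 0.49 and 0.53 for the 48 large subunit genes, and 0.57 and 0.63 for the 29 small subunit genes. Over 9193 protein-coding genes averaging 1 TPM or more they were 0.47 and 0.52. Over the 8483 genes within the members' range of mean TPM they were 0.31 and 0.45. The points share 2 libraries and are not independent, so these numbers only describe how far the libraries give the same order of genes.

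**Figure D3:**
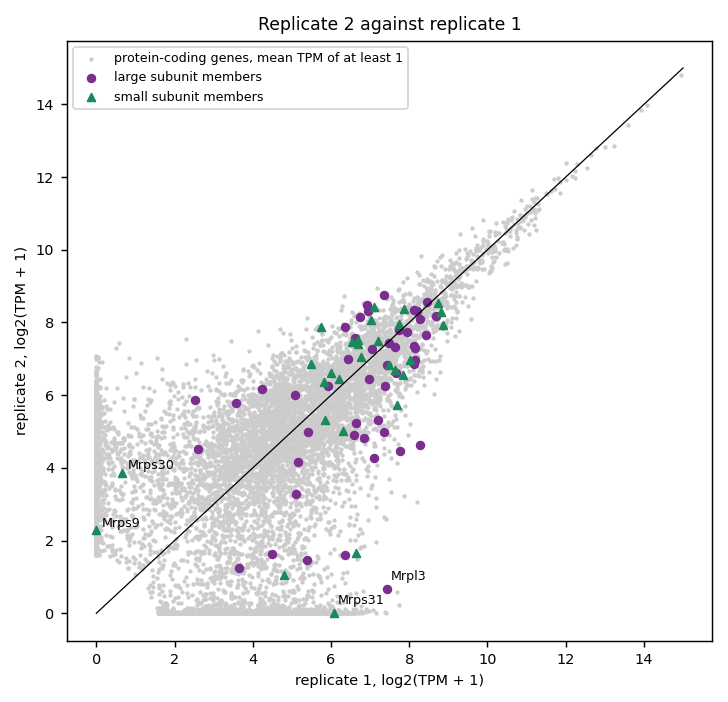
Each grey point is a protein-coding gene averaging 1 TPM or more, placed by log2(TPM + 1) in replicate 1 (horizontal) and replicate 2 (vertical), with the line of equality; purple circles are large and green triangles small subunit genes. The members spread along the upper part of the cloud, and Mrpl3, Mrps31, Mrps30 and Mrps9 lie near the axes.

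Reads of a member can be shared with a copy of its sequence elsewhere in the genome. The largest case was Mrpl23. This gene (ENSMUSG00000037772.8, chromosome 7, 142532686 to 142540747, plus strand) had 331 and 36.1 estimated reads. Its processed pseudogene Mrpl23-ps1 (chromosome 2, 74591330 to 74591909, minus strand) had 5354 and 4188 reads, a TPM of 377 in replicate 1 and 296 in replicate 2. The pseudogene thus held 94.6% and 99.3% of their summed TPM. The coding sequence of Mrpl23, 438 bases, is identical in the pseudogene, with 0 differences. Over the longer transcripts, 692 bases for the gene and 580 for the pseudogene, 540 bases align with 0 mismatches and 0 gaps. The deposited bounds on the TPM of Mrpl23 were 10.8 to 50.7 in replicate 1 and 1.70 to 21.7 in replicate 2. The split of reads between the identical copies is the authors' estimate, so the level of Mrpl23 is uncertain. With the copy added it would stand at 398 and 298 TPM, among the highest members. The first 300 bases of the coding sequence, spliced, in GRCm38, are shown because a read lying within them fits both loci equally.

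Mrpl23, from ATG: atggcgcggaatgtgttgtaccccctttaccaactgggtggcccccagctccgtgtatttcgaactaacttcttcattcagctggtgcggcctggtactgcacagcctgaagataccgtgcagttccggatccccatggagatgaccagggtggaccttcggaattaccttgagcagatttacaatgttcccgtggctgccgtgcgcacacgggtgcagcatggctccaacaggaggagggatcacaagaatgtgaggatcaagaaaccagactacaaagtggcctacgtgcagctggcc
Mrpl23-ps1, aligned stretch: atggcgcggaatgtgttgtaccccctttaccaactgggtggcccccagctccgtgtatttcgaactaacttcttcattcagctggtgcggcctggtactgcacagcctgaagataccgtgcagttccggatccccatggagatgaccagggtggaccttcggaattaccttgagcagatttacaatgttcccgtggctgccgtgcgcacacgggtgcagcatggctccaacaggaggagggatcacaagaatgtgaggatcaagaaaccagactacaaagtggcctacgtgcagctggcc

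A search of 7906 pseudogene rows for copies with at least 90% identity over at least 80% of the coding sequence found 27 copies of 16 members, out of 76 members with a coding sequence in the tables. Of these copies 4 reached 1 TPM in each library. Besides Mrpl23-ps1, they were Gm5776, a copy of Mrps33 (99.7% identical), at 13.1 and 13.4 TPM, Mrps36-ps1 (99.3% identical) at 9.74 and 1.76, and Mrps36-ps2 (99.0%) at 2.40 and 2.49. Mrps33 itself stood at 179 and 113 and Mrps36 at 468 and 242, so these copies held a small share. Mrpl23 was the only member of the 16 exceeded by a copy.

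**Figure D4:**
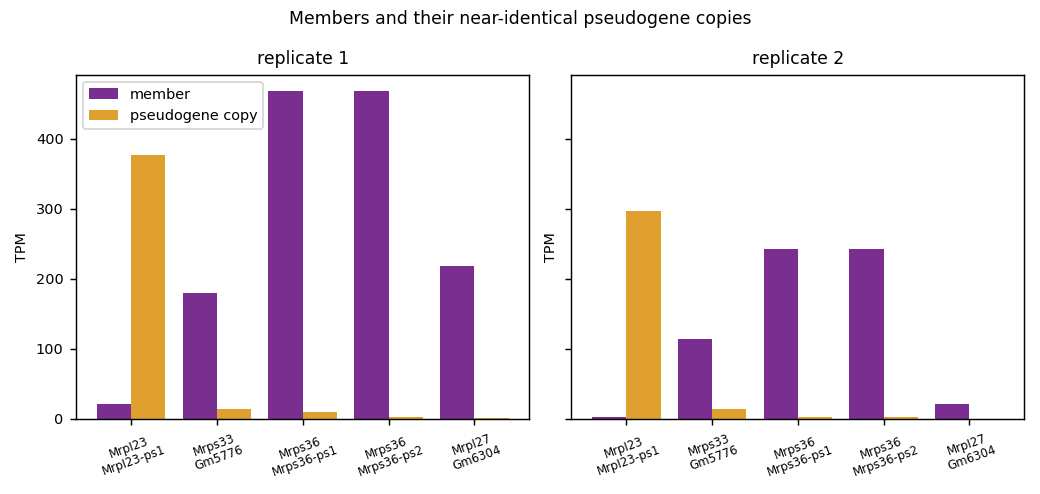
Bars give TPM of members (purple) and of a pseudogene copy (yellow) in replicate 1 and replicate 2, for the 5 copies that reached 1 TPM in either library. Only for Mrpl23 is the copy higher than the gene, at 377 against 21.6 TPM in replicate 1.

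Reads were also divided among transcripts of a gene. Of 58 members with at least 2 annotated transcripts, 57 had reads in both libraries, and the transcript with the highest TPM was the same in 49 of them and differed in 8. That is 14.0% of the members compared, against 40.1% of the 5729 protein-coding genes with reads in both libraries and at least 2 transcripts. At a mean TPM of 10 to 100 the leading transcript differed in 7 of 19 members (36.8%, against 45.2% of genes), and at 100 or more in 1 of 37 (2.7%, against 14.0%). The 8 members were Mrps10, Mrpl1, Mrpl10, Mrps6, Mrpl38, Mrps11, Mrpl58 and Mrpl24. Mrpl10 had all its TPM in 1 protein-coding transcript in replicate 1 and all in another in replicate 2, with effective lengths of 1609 and 645 bases, and Mrps6 (26.8 and 1.07 TPM) moved from a protein-coding transcript to 1 annotated as a processed transcript. Mrpl38 (136 and 18.1 TPM) had 66.8% of its TPM in a protein-coding transcript in replicate 1 and 99.7% in a retained-intron form in replicate 2. Mrpl58, a peptidyl-tRNA hydrolase built into the ribosome, had a retained-intron form leading with 40.4% in replicate 1 and a protein-coding form with 64.3% in replicate 2. For Mrpl1, Mrps10, Mrpl10 and Mrps6 the lower library held few reads, and the transcript shares there rest on them.

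The leading transcript was annotated as protein-coding in 63 of 76 members in each library (82.9%, against 86.0% of protein-coding genes in replicate 1 and 84.4% in replicate 2). At a mean TPM of 10 to 100 a leading transcript was present in both libraries for 27 members. Among members with such a transcript in the given library it was protein-coding in 89.3% and 85.2%, against 85.1% and 84.0% of genes. At 100 or more it was protein-coding in 78.3% and 80.4% of 46 members, against 90.9% and 90.7% of genes. Genes with a single transcript are counted here too. In 11 members the leading transcript was not protein-coding in either library. Mrpl3, Mrps14, Mrpl32 and Mrpl13 were led by a transcript of the nonsense-mediated decay class. Mrpl47 and Mrpl15 were led by a processed transcript, and Mrps25, Mrpl51, Mrps5, Mrps26 and Mrps24 by a retained-intron form. Mrpl32 has only 1 quantified transcript, so its lead was fixed in advance, and Mrpl3 had 22 reads in replicate 2. Transcript classes are those of GENCODE M21, while the authors used release M4. In Mrps14, the highest member, the nonsense-mediated decay form held 89.9% and 93.1% of the TPM. In Mrps26 the retained-intron form held 94.5% and 95.6%. These shares come from reads that fit several overlapping transcripts and do not show which protein is made.

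Genes that overlap a member can also take part in its value. Exons of 28 members overlap a gene on the opposite strand, over at least 25% of their exon bases in 6 of them, and whether counting used strand is not given in the sources used here. These 6 were Mrps25 (69.8%), Mrps34 (63.4%), Mrpl19 (36.0%), Mrpl43 (33.4%), Mrps18b (30.5%) and Mrpl24 (26.3%). On the same strand 7 members overlap another gene, with 88.0% of the exon bases of Mrpl53 and 37.0% of those of Mrps34. Overlap was not computed over all protein-coding genes, so these counts are not read as a trait of the members.

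Many members start head to head with another gene. In 33 of 77 members (42.9%) a protein-coding gene on the other strand starts within 1000 bases, against 2350 protein-coding genes in all (10.9%). This comes from the annotation and not from the libraries. A single pair joins members with each other, Mrpl46 (33.5 and 8.78 TPM) and Mrps11 (78.2 and 31.2 TPM) on chromosome 7, both at least 2-fold higher in replicate 1. Among all 21474 protein-coding genes 12007 were under a TPM of 1 in both libraries, and the median TPM was 0 in each. The members' median TPM was 125 and 113, so the counts that follow are not read as a trait of these pairs. Of the 31 members outside that pair the partner was under a TPM of 1 in both libraries for 10. The member was the higher gene in both libraries for 25, and the partner was higher in both for 5. Those 5 partners were Fau (1037 and 1029.7 TPM, beside Mrpl49 at 32.7 and 63.8), which encodes a cytosolic ribosomal protein, the proteasome gene Psma2 (482 and 706) beside Mrpl32, the respiratory chain genes Ndufs6 (569.9 and 336) beside Mrpl36 and Ndufb5 (223 and 172) beside Mrpl47, and the chaperonin gene Tcp1 (371 and 459) beside Mrpl18.

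RefSeq promoter windows (GRCm38.p6), 250 bases before to 50 after an annotated start, were matched to 68 members, which gave 74 windows of 300 bases out of 32544. Short words were searched as exact letters on both strands. GCATGCGC, a core of the binding site of NRF1, a regulator of nuclear genes for mitochondria, was in 7 windows of members (9.5%, against 2.7% of all windows). CCGGAAGT, an ETS family word also read by the factor GABP, was in 11 (14.9%, against 3.9%), and AAGATGGC, a YY1 word, in 12 (16.2%, against 2.8%). At least 1 of these 3 words was in 28 windows (37.8%, against 8.9%). TATAAA was in 5 (6.8%, against 13.6%) and GGGCGG in 39 (52.7%, against 35.9%). GC content was 59.2% in the members' windows and 53.9% in all, which moves with GC-rich words. A match describes letters in the window and is neither a bound site nor a cause of a level. The NRF1 word was in 6 of 47 large and 1 of 27 small subunit windows, and the YY1 word in 6 and 6.

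**Figure D5:**
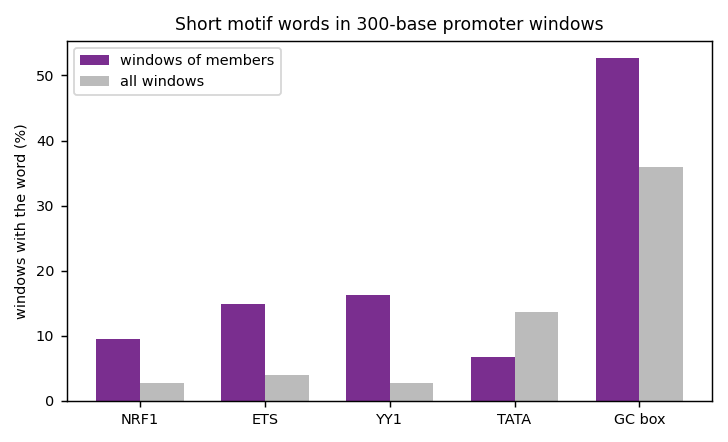
Bars give the percent of 300-base promoter windows that hold each word on either strand, for 74 windows of members (purple) and all 32544 windows (grey). The NRF1, ETS, YY1 and GC box words are more frequent in members' windows, and the TATA word less frequent.

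The 100 bases before the start are shown for 4 members whose word lies close to the start, with capitals marking the NRF1 word in the first pair and the ETS word in the second pair. In Mrpl22 the NRF1 word lies on the strand opposite to that shown. In Mrpl9 the word occurs on both strands and its matches overlap into a palindrome.

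Mrpl22 (chr11:58171564-58171663, plus strand): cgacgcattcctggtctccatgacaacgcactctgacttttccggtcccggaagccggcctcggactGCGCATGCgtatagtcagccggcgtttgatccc
Mrpl9 (chr3:94443236-94443335, plus strand): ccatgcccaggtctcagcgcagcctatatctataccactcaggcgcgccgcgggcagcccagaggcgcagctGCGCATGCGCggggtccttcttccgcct
Mrpl43 (chr19:45006443-45006542, minus strand): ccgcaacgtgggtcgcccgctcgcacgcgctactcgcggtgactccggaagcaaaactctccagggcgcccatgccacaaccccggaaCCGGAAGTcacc
Mrps22 (chr9:98601680-98601779, minus strand): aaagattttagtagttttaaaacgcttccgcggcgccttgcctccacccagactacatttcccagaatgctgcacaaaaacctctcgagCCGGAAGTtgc

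The levels of these 4 genes did not move alike between the libraries. Mrpl22 stood at 308 and 23.8 TPM and Mrpl9 at 145 and 38.7, both at least 2-fold higher in replicate 1. Mrpl43 stood at 125 and 85.5 and Mrps22, a small subunit protein found only in mitochondria, at 72.8 and 86.7, both within 2-fold. The other members with the NRF1 word in these 100 bases, Mrpl17 and Mrpl32, were within 2-fold. Among the others with the ETS word there, Mrpl3, Mrpl27 and Mrpl51 were at least 2-fold higher in replicate 1. Mrpl48, Mrps26 and Mrps27 were within 2-fold.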

How the data were processed

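RNA was measured in 2 SmartSeq libraries of 1 group, described above. Per the file headers, the authors deposited expected counts (estimated reads that need not be whole), TPM, FPKM, posterior mean TPM, effective lengths and credibility bounds per gene, and the deposited percent of each gene's abundance per transcript. Assembly mm10 and GENCODE release M4 come from the labels and deposited notes. The quantification program is not given in the sources used here.

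Symbols, types and coordinates came from GENCODE M21 by identifier without version suffix, which matched 42462 of 43346 Ensembl rows, leaving 884. Members and lists were chosen with earlier results of these data known. The classes of Mrps24, Mrps28 and Mrpl47 were corrected after their values had been seen. All members could be named. Named in full were the 8 highest of each subunit, those under a TPM of 1 in a library, the 5 largest ratios in each direction, the S18 paralogs and those with differing leading transcripts. Of other lists, the 3 highest and those in neither library were named, and Hnf4a as the hepatoblast marker detected in 1 library. The ratio used a pseudocount of 1, and for low genes it understates change. Its code was tested on simulated data. No p-value was computed, because 1 group has no contrast. The floor of 3 reads is 0.0901 CPM for replicate 1 and 0.092 CPM for replicate 2. Over 9871 genes with at least 20 reads, their counts gave a chi-square of 890.2 per degree of freedom, and the libraries are not copies of each other. Pseudogene copies were found with BLAST+ 2.17.0, and other steps used Python 3.11.15, pandas 2.3.3, numpy 2.4.6 and Biopython 1.88. Alternatives were other TPM thresholds, pseudocounts, filters, units and centrings, each library alone, and, chosen after seeing the data, adding Mrpl33 and adding pseudogene copies.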

Additional observations from a re-analysis of the deposited data

Results flagged for a closer look

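Reads outside the member rows were found in 2 places. The 27 pseudogene copies of members held 5558.9 estimated reads in replicate 1 and 4329.48 in replicate 2, nearly all on Mrpl23-ps1. A transcript of Mrpl33, a large subunit protein with a bacterial counterpart, is in the tables under a gene identifier that does not map to that symbol, so Mrpl33 is not among the 77 members. It held 2041.96 reads in replicate 1 and 2562.77 in replicate 2, at 182 and 230.2 TPM. Both are above the limit of 3 reads that a count of 0 allows.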

How the results depend on the processing

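The count of members detected in both libraries ran from 66 to 75 around 73, with TPM thresholds of 5 and 0.5 at the ends. The count past 2-fold ran from 27 to 41 around 38, lowest where a mean TPM of at least 50 was asked, which leaves 60 members. Counts stayed within 1.5 times the reported count under every alternative run. Of the other values, 5 moved by more than the SD between the libraries. The median of members' mean TPM was 135 for the small subunit and 121 in FPKM. With each library alone it was 103 to 116 for the small subunit and 90.9 to 133 for the large subunit, whose median of mean TPM was 131. The members' share was 0.806% of reads in place of 1.10% of TPM. Over each library alone the share was 1.03% to 1.16% and the ratio of large to small subunit medians 0.785 to 1.29, which puts the small subunit higher in replicate 2 and the large in replicate 1. For the share and the ratio a library alone could not pass the SD rule. With 2 libraries, each lies within the SD of their mean. No paired analysis was possible because the libraries form a single group. Values are uncertain for genes with few reads in a library, such as Mrpl3 with 22 and Mrps6 with 19 in replicate 2. In replicate 1 Mrpl3 had 5749 reads and Mrps6 had 591. Total estimated counts were near equal, at 33289699 in replicate 1 and 32607453 in replicate 2. The part of sequencing depth and of the small RNA input in these low counts was not tested.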
